A study of Bos taurus with 6 samples.

Results

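Genomic imprinting leaves a gene active from only the copy inherited from the mother or only the copy inherited from the father, and the marks behind it are set in the germ line and have to survive the early cleavage divisions. Many imprinted genes act on growth of the fetus and placenta: in the mouse, paternally expressed IGF2 promotes growth, while maternally expressed IGF2R, GRB10 and CDKN1C restrain it. Imprinted genes are often examined after ovarian stimulation and embryo culture in cattle and mice, because loss of their marks is linked to overgrowth in ruminants.

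A set of 10 imprinted genes was examined in day 7 bovine blastocysts: IGF2, IGF2R, SNRPN, PEG3, PEG10, MEST, GRB10, CDKN1C, PLAGL1 and H19. The genes were chosen by name, and every probe set of the Affymetrix GeneChip Bovine Genome Array that the platform annotation ties to exactly 1 of these symbols was read. This gave 21 probe sets for 8 genes, among 24016 probe sets and 9155 named genes. SNRPN and H19 had 0 probe sets under their symbols and were not analysed here.

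The superovulated group, with 3 arrays, held blastocysts that grew until day 7 in the tract of Simmental heifers that had been synchronized, superovulated and inseminated. The synchronized group, with 3 arrays, held embryos from donors treated in the same way, which were flushed on day 2 at the 2-cell stage, moved by endoscope into recipients that were synchronized but not superovulated, and collected on day 7. The design names 18 superovulated heifers, of which 9 were flushed on day 2. All embryos thus came from stimulated ovaries, so the comparison concerns the tract that carried the embryo from day 2, and the effect of that tract cannot be told apart from the effect of flushing and transfer. The number of blastocysts per array and whether arrays came from separate animals are not given in the sources used here, so the spread behind each p-value is that of these arrays and may be technical. In such whole-embryo RNA, fewer cells of a type and less RNA per cell cannot be told apart.

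The deposited values are log2 expression values. Array medians lay between 2.75 and 2.8, and between 1457 and 1894 probe sets per superovulated array exceeded log2 4, against 973 to 1850 per synchronized array. Superovulated array 3 and synchronized array 2 had more probe sets above log2 4 than the other arrays of their groups, and they correlated with each other at r = 0.892 across probe sets, above the other 8 pairs that join the groups. Of 14 blastocyst markers 10 were measured and 5 exceeded log2 4 on at least 1 array. Over the 10 the median difference was 1.46, and 6 were higher in the superovulated group without overlap. This compares with 5.42% of all probe sets and 31.4% of those above log2 4 on at least 1 array. A total of 2 rose, KRT18 and DAB2, against 0.695% of all probe sets called higher. The trophectoderm keratin KRT18 read 7.74 to 8.11 on superovulated arrays, against 3.55 to 4.90 on synchronized arrays (adjusted p = 0.0410 by limma). DAB2 read 4.85 to 5.02 on superovulated arrays, against 2.32 to 3.14 on synchronized arrays (adjusted p = 0.0387 by limma). The other 4 without overlap were EPCAM (difference 2.38), FN1 (2.23), GATA6 (2.12) and POU5F1 (0.81), while KRT8, SOX2 and CDH1 each differed by -0.01. The part of these markers in the values of the imprinted genes was not tested. The differences of IGF2R, PEG3, MEST, PEG10 and PLAGL1 are therefore given with and without superovulated array 3 and synchronized array 2.

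Most of these imprinted genes stayed at low values in both groups. Only 3 of the 21 probe sets exceeded log2 4 on any array, 1 each for IGF2R, PEG3 and MEST, which is 14.3% against 12% of all probe sets. The highest values were 4.31 for IGF2R, 4.70 for PEG3 and 4.83 for MEST, each on synchronized array 2. The nearest probe set below the threshold was that of PLAGL1, at 3.95 on the same array, followed by a second PEG3 probe set at 3.33 and a CDKN1C probe set at 3.23 on superovulated array 2. The other 5 genes, IGF2, PEG10, GRB10, CDKN1C and PLAGL1, did not exceed log2 4 on any of the 6 arrays. GCRMA compresses values near background, so for these a difference in transcript level may go unseen, and the values do not show that the genes were silent.

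No imprinted probe set passed the comparison of superovulated with synchronized blastocysts: 0 of 21 had an adjusted p below 0.05 in limma, against 0.716% of all probe sets (0.695% higher and 0.0208% lower), and the smallest adjusted p was 0.450. At an unadjusted p below 0.05 the count was 1 of 21, against 6.65% of all probe sets; this was IGF2R, lower in the superovulated group as were 2.09% of all probe sets. Differences are log2 values, superovulated less synchronized. They were below 0 for 17 of 21 probe sets, against 71.9% of all probe sets, and their median was -0.02, equal to the median of all probe sets to 2 decimals. Once each array was centred on its median, 10 were below 0 and 9 above 0. Taking for each gene its probe set with the highest mean, 7 of 8 differences were below 0, with a median of -0.27. The same was not computed over all genes, so the 71.9% and -0.02 of all probe sets are no measure for this choice.

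**Figure D1:**
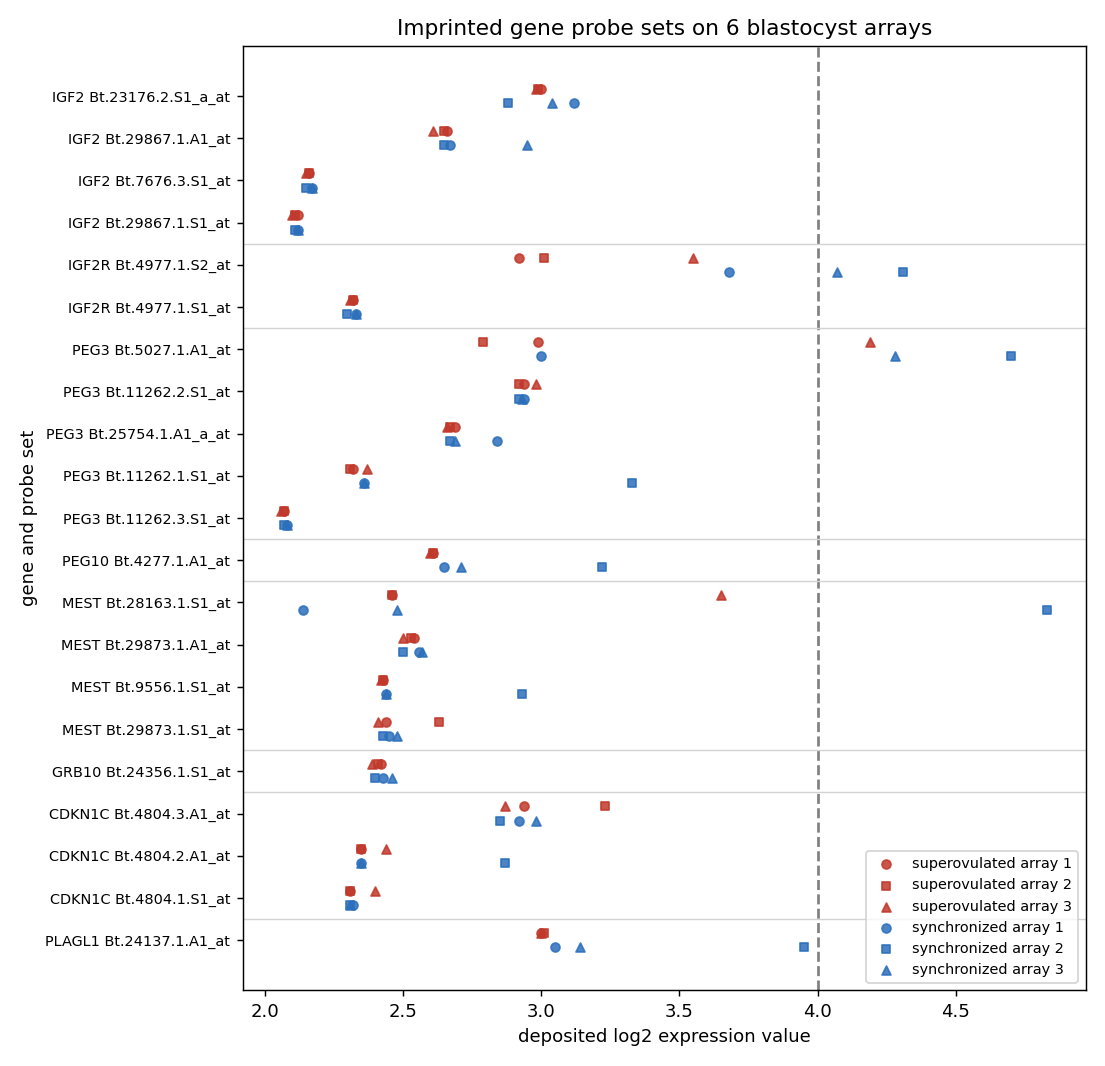
Deposited log2 values (horizontal axis) of the 21 imprinted probe sets (rows, grouped by gene) on 3 superovulated arrays (red) and 3 synchronized arrays (blue), each point being 1 array and the dashed line log2 4. Only an IGF2R, a PEG3 and a MEST probe set cross the line, and the blue squares of synchronized array 2 lie apart to the right for several genes.

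IGF2R had the largest difference between the groups among the 21 probe sets. Its protein, the cation-independent mannose 6-phosphate receptor, carries lysosomal enzymes and removes IGF2 from the cell surface for degradation. Its brighter probe set read 2.92, 3.01 and 3.55 for superovulated arrays 1 to 3, against 3.68, 4.31 and 4.07 for synchronized arrays 1 to 3. All superovulated values lay below all synchronized values, with a gap of 0.13 between the nearest arrays that is smaller than the spread inside either group.

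The IGF2R means were 3.16 ± 0.34 in the superovulated group and 4.02 ± 0.32 in the synchronized group (SD, n = 3 each). The difference was -0.86 with a standard error of 0.24 and a 95% interval of -1.48 to -0.24 from limma. Its unadjusted p was 0.0166, and adjusted over all probe sets by limma with the Benjamini-Hochberg method it was 0.450, so the difference did not pass. Of the 2881 probe sets above log2 4 on at least 1 array, 130 (4.51%) had a difference as low or lower. IGF2R entered that set through its synchronized arrays alone, and the median difference of the set was 0.17. The rank is thus a description only and no support for a difference. Within each array the probe set ranked at percentile 63.8, 70.9 and 87.8 for superovulated arrays 1 to 3, against percentile 93.0, 93.9 and 95.4 for synchronized arrays 1 to 3.

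The IGF2R difference was -0.91 without both superovulated array 3 and synchronized array 2 (adjusted p = 0.342 by limma), so it was as large without the arrays that stood apart. Over the fits that left out 1 array it ranged from -1.06 to -0.72. It passed in 1 alternative, in which each array was centred on its probe sets with a mean above log2 4, with a difference of -1.48 and adjusted p = 0.00275 by limma. Under that centring the median difference of all probe sets was -0.65, against -0.02 as deposited. As deposited, 1005 of the 1406 probe sets used for it were above 0 and 396 below. Relative to the median of all probe sets the IGF2R difference was -0.84. The second IGF2R probe set stayed between 2.30 and 2.33 on all 6 arrays and showed no signal against which the first could be checked.

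Of 10 genes listed as paralogs of the members 5 were measured and 0 passed in limma. The other mannose 6-phosphate receptor gene, M6PR, which carries lysosomal enzymes but does not bind IGF2, was near background too. It read 2.52, 2.51 and 2.49 in superovulated blastocysts, against 2.79, 2.50 and 2.69 in synchronized blastocysts, a difference of -0.15 (adjusted p = 0.636 by limma). SNRPB, which encodes the spliceosomal relative of the SNRPN protein, read 3.16, 3.46 and 4.02 in superovulated blastocysts, against 3.15, 3.04 and 3.07 in synchronized blastocysts, a difference of 0.46 that did not pass (adjusted p = 0.636 by limma).

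The ligand IGF2 was at background on all 4 of its probe sets. Values ran from 2.10 to 3.12, and the 4 differences lay between -0.12 and -0.01. The brightest IGF2 probe set read 3.0, 2.99 and 2.98 in superovulated blastocysts, against 3.12, 2.88 and 3.04 in synchronized blastocysts, so the superovulated values fell inside the synchronized range. Its 95% interval was -0.19 to 0.15. Both probe sets at the bottom, near 2.1, moved by no more than 0.02 over the 6 arrays.

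GRB10 and CDKN1C, the other measured members expressed from the maternal copy, were also near background. GRB10 encodes an adaptor that binds the insulin and IGF1 receptors and dampens their signal, and its single probe set read 2.42, 2.41 and 2.39 in superovulated blastocysts, against 2.43, 2.40 and 2.46 in synchronized blastocysts, a difference of -0.02. CDKN1C encodes the cyclin-dependent kinase inhibitor p57, and its 3 probe sets ran from 2.31 to 3.23. The brightest read 2.94, 3.23 and 2.87 in superovulated blastocysts, against 2.92, 2.85 and 2.98 in synchronized blastocysts, with a difference of 0.10 and a 95% interval of -0.18 to 0.37. A second CDKN1C probe set was flat at 2.35 to 2.44 on 5 arrays and read 2.87 on synchronized array 2.

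MEST and PEG3, expressed from the paternal copy, were high on some arrays of each group and low on others. MEST encodes a protein of the alpha/beta hydrolase fold that supports fetal growth in the mouse. Its brightest probe set read 2.46, 2.46 and 3.65 for superovulated arrays 1 to 3, against 2.14, 4.83 and 2.48 for synchronized arrays 1 to 3. In each group 1 array stood out and the other arrays were at background, so the groups overlapped. The means were 2.86 ± 0.69 in the superovulated group and 3.15 ± 1.46 in the synchronized group (SD, n = 3 each), and the difference of -0.29 had a 95% interval of -2.45 to 1.87. Without synchronized array 2 the difference was 0.55, and without both arrays that stood out it was 0.15. The other 3 MEST probe sets read at most 2.93, the highest again on synchronized array 2, where 1 of them read 2.93 against 2.42 to 2.44 on the other 5 arrays.

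PEG3 encodes a large zinc finger protein that acts on growth and maternal behaviour in the mouse. Its brightest probe set read 2.99, 2.79 and 4.19 for superovulated arrays 1 to 3, against 3.0, 4.70 and 4.28 for synchronized arrays 1 to 3. A total of 3 arrays were above log2 4, 1 superovulated and 2 synchronized, and the groups overlapped. The means were 3.32 ± 0.76 in the superovulated group and 3.99 ± 0.89 in the synchronized group (SD, n = 3 each), with a difference of -0.67 (standard error 0.60, adjusted p = 0.636 by limma). Leaving out 1 array gave -1.17 without synchronized array 1, -1.10 without superovulated array 3, -0.40 without superovulated array 2 and -0.32 without synchronized array 2. It was -0.75 without both superovulated array 3 and synchronized array 2. Under the centring on bright probe sets it passed as well, at -1.29 (adjusted p = 0.0168 by limma). A second PEG3 probe set read 3.33 on synchronized array 2 and 2.31 to 2.37 elsewhere. The other 3 PEG3 probe sets did not move by more than 0.18 over the 6 arrays.

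PEG10 and PLAGL1 showed a small excess on synchronized array 2 as well. PEG10, a gene derived from a retrotransposon that the mouse needs to form a placenta, read 2.61, 2.61 and 2.60 in superovulated blastocysts, against 2.65, 3.22 and 2.71 in synchronized blastocysts. PLAGL1, a zinc finger transcription factor that regulates other imprinted genes in the mouse, read 3.0, 3.01 and 3.0 in superovulated blastocysts, against 3.05, 3.95 and 3.14 in synchronized blastocysts. In both genes the groups did not overlap, but the gap between the nearest arrays was only 0.04. The differences were -0.25 for PEG10 and -0.38 for PLAGL1, and they became -0.07 and -0.09 once superovulated array 3 and synchronized array 2 were both left out. The intervals, -0.67 to 0.17 for PEG10 and -1.04 to 0.29 for PLAGL1, included 0.

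**Figure D2:**
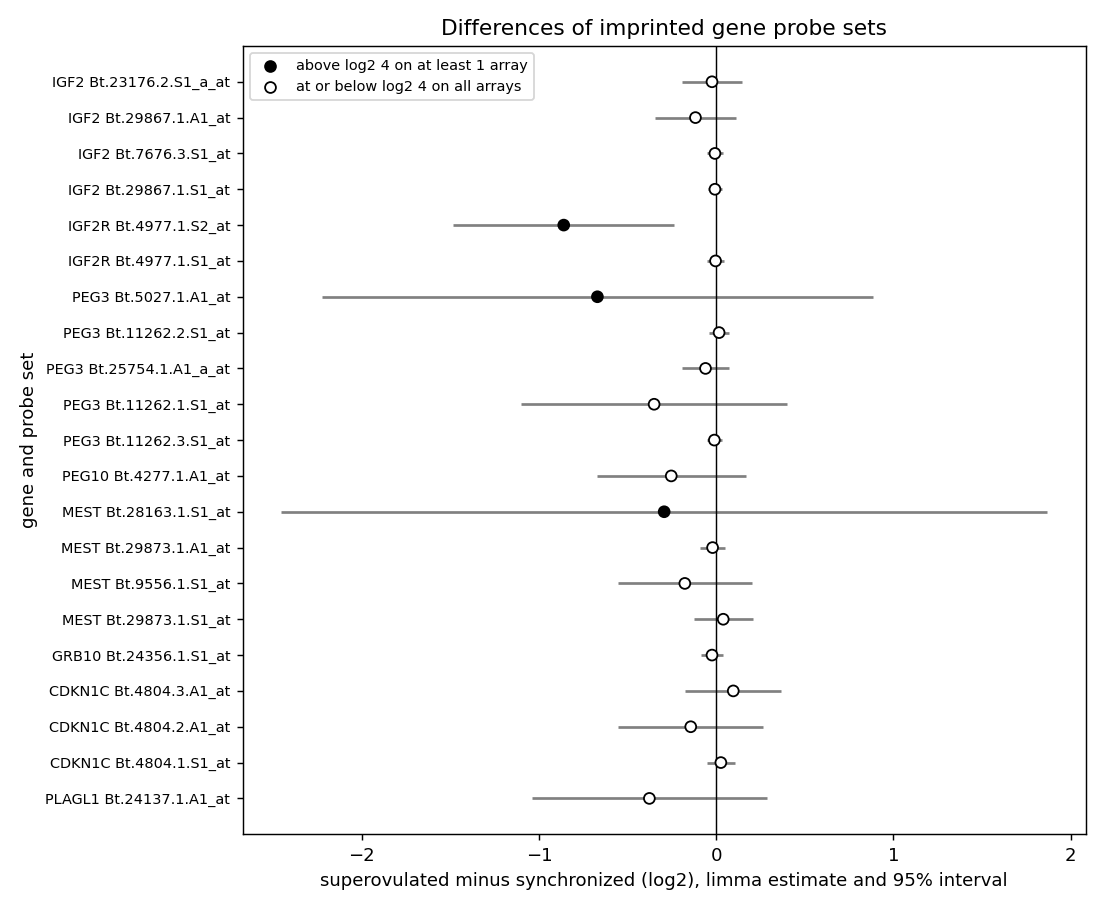
Superovulated minus synchronized difference in log2 value for each of the 21 imprinted probe sets, as the limma estimate (point) with its 95% interval (line), filled where the probe set exceeded log2 4 on at least 1 array. Only the interval of the brighter IGF2R probe set, from -1.48 to -0.24, leaves out 0, and no probe set passed the adjusted threshold.

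Groups without overlap were found for 4 of the 21 probe sets, against 13.3% of all probe sets: IGF2R, PEG10, PLAGL1 and the MEST probe set that read 2.93 on synchronized array 2. All 4 were lower in the superovulated group, a pattern that 7.89% of all probe sets showed; 5.42% showed the opposite one. Among probe sets above log2 4 on at least 1 array, where IGF2R was 1 of 3 members, 5.59% were lower without overlap and 31.4% were higher. IGF2R entered that set through its synchronized arrays alone. The MEST probe set had a gap of 0.01 between the nearest arrays. By the parental copy that is active, the 15 probe sets of the 5 paternally expressed genes had a median difference of -0.06, with 13 below 0. The 6 probe sets of the 3 maternally expressed genes had a median of -0.01, with 4 below 0. Neither class had a probe set that passed.

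Synchronized array 2 carried the highest of all 6 values for 8 of the 21 imprinted probe sets, a larger share than the 12.5% of all probe sets. It exceeded the next synchronized array by more than 0.4 in 7 of the 21 probe sets (33.3%), against 8.28% of all probe sets. These 7 were 2 probe sets of PEG3, 2 of MEST and 1 each of PEG10, PLAGL1 and CDKN1C. The limit of 0.4 and the count of array order were chosen after the values were seen. Superovulated array 3 and synchronized array 2 were both the highest of their groups in 5 of the 21 probe sets, and in all 3 that exceeded log2 4. This order also held for 9.19% of all probe sets and for 42.7% of the 2881 probe sets above log2 4 on at least 1 array.

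Some markers of cumulus and granulosa cells showed this array order too. Of 11 such genes, all measured, 6 exceeded log2 4 on at least 1 array. A total of 5 (45.5%) were highest on superovulated array 3 and synchronized array 2 within their groups: TNFAIP6, PTX3, FST, INHBA and INHA. The same order held for 9.19% of all probe sets. Of the 6 markers above log2 4 on at least 1 array 4 had it, against 42.7% of all probe sets above that level. Whether the order is particular to these markers was not tested. TNFAIP6, which helps build the hyaluronan matrix of the cumulus, read 3.05, 2.99 and 7.38 in superovulated blastocysts, against 4.25, 8.47 and 5.96 in synchronized blastocysts. Summed over the list on the linear scale, the signal was 132, 127 and 361 for superovulated arrays 1 to 3, against 121, 583 and 170 for synchronized arrays 1 to 3. The granulosa gene INHA read 4.79, 4.85 and 6.64 in superovulated blastocysts, against 4.85, 6.79 and 4.87 in synchronized blastocysts, whereas FSHR, CYP19A1 and AMH stayed between 2.36 and 3.38. The other 3 markers were not highest on these arrays. COL1A2 rose, with 3.76, 3.61 and 3.60 in superovulated blastocysts, against 3.01, 3.06 and 2.93 in synchronized blastocysts (adjusted p = 0.0316 by limma). PTGS2 read 4.74, 4.47 and 3.88 in superovulated blastocysts, against 2.86, 3.16 and 3.21 in synchronized blastocysts (adjusted p = 0.175 by limma), and HAS2 differed by 0.27. Of 8 measured oviduct and uterus markers 2 exceeded log2 4, C3 and MSX1. The complement gene C3 rose, with 5.29, 5.95 and 5.44 in superovulated blastocysts, against 2.78, 2.84 and 3.38 in synchronized blastocysts (adjusted p = 0.0373 by limma), while the oviductal glycoprotein OVGP1 stayed between 2.19 and 2.26. That list summed to 91.3, 143 and 436 on superovulated arrays 1 to 3 and to 103, 1376 and 268 for synchronized arrays 1 to 3, of which MSX1, with 8.48 on superovulated array 3 and 10.38 on synchronized array 2, made up most on those arrays. None of 8 blood markers exceeded log2 4, and that list summed to between 50.8 and 52.9 in superovulated blastocysts and between 51.8 and 54.9 in synchronized blastocysts. The part of these markers in the IGF2R, MEST, PEG3 and PLAGL1 values was not tested.

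**Figure D3:**
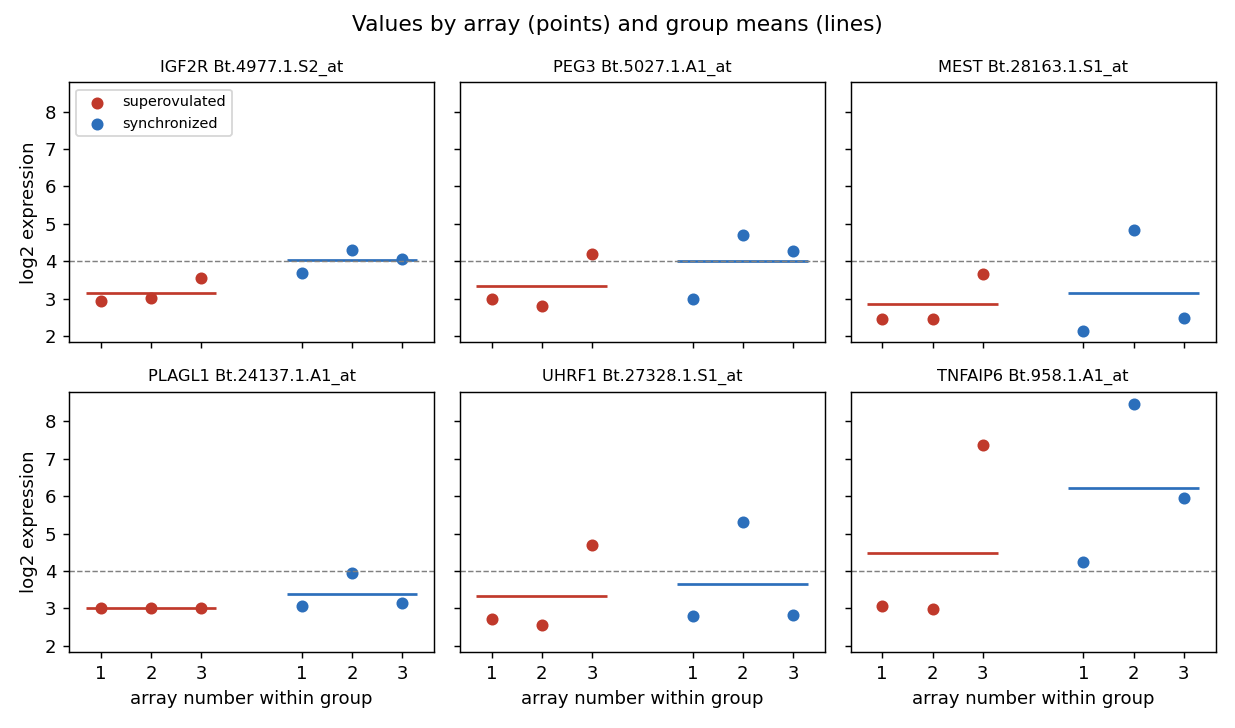
Log2 values of IGF2R, PEG3, MEST, PLAGL1, UHRF1 and TNFAIP6 on superovulated arrays 1 to 3 (red, left) and synchronized arrays 1 to 3 (blue, right), with horizontal lines at the group means and a dashed line at log2 4. MEST and UHRF1 are high on superovulated array 3 and synchronized array 2 only, whereas for IGF2R every superovulated value, up to 3.55, is below every synchronized value, from 3.68.

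The transcripts most like each of the 3 brightest imprinted probe sets were sought among 1883 probe sets above log2 4 with another symbol, by Pearson correlation over the 6 arrays. MEST was followed by the RNA helicase gene DDX19A (r above 0.999), UBXN4 (r = 0.999) and TMEM185B (r = 0.998), and 409 probe sets exceeded r = 0.9. PEG3 was followed by the autophagy gene ATG14 (r = 0.989), the Arp2/3 complex gene ARPC5 (r = 0.981) and LOC100848703 (r = 0.978), with 60 above r = 0.9. IGF2R was followed by the Hsc70-interacting protein gene ST13 (r = 0.972), PLSCR4 (r = 0.964) and the COPII coat gene SEC31A (r = 0.953), with 13 above r = 0.9. SEC31A read 6.18, 6.57 and 7.23 in superovulated blastocysts, against 7.69, 8.24 and 8.70 in synchronized blastocysts, the same separation of the groups as IGF2R at a higher level. These correlations rest on 6 arrays that share 2 group means and 2 arrays that stood apart, and they are a description only.

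Genes next to these members in imprinted clusters were mostly near background as well. By gene order in the ARS-UCD2.0 table, SNURF directly adjoins SNRPN, and both proteins are made from a shared transcript in human and mouse. The brighter SNURF probe set read 3.10, 2.82 and 2.80 in superovulated blastocysts, against 2.85, 2.81 and 2.63 in synchronized blastocysts. The other read 2.69, 3.18 and 2.66 in superovulated blastocysts, against 2.69 on each synchronized array. The differences were 0.14 and 0.15, and neither passed. NDN, with 1 gene between it and SNRPN, encodes the growth suppressor necdin and was brighter. It read 4.51, 5.34 and 5.14 in superovulated blastocysts, against 3.33, 4.36 and 3.51 in synchronized blastocysts, without overlap and with a difference of 1.26 (adjusted p = 0.473 by limma). UBE3A, a ubiquitin ligase gene with 3 genes between it and SNRPN, differed by 0.40 (adjusted p = 0.636 by limma). Other neighbours of SNRPN went the other way, near background. MAGEL2, with 2 genes between, differed by -0.03, and MKRN3, with 3 between, by -0.07 without overlap. Near IGF2, ASCL2 differed by -0.05, CD81 by -0.01 and TSSC4 by -0.34. Near PEG10, PON3 differed by -0.07 and PON2 by 0.01. Around CDKN1C, the placental growth regulator PHLDA2 stayed between 2.72 and 2.92, SLC22A18 between 2.28 and 2.30 and the potassium channel gene KCNQ1 between 2.45 and 2.78. Beside PEG10, SGCE ran from 2.43 to 3.67, beside MEST, COPG2 ran from 2.82 to 3.35, and beside GRB10, DDC ran from 2.24 to 2.27. All these neighbours but NDN are given for their position near a member, a rule chosen after values were seen.

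Of 58 further imprinted genes 31 were measured, 4 exceeded log2 4 on at least 1 array, and 0 passed in either direction in limma. At an unadjusted p below 0.05, 2 were higher and 1 was lower, against 6.65% of all probe sets in either direction and 2.09% lower. The median difference was -0.01, against -0.02 over all probe sets. Each gene was read on its probe set with the highest mean, so the values over all probe sets are no measure for this choice. The 4 with the smallest p were GATM, which makes guanidinoacetate for creatine, NDN, the copper and protein sorting gene COMMD1 and the long noncoding RNA gene MEG3. GATM averaged 2.87 ± 0.02 in the superovulated group and 3.10 ± 0.10 in the synchronized group, at background (adjusted p = 0.321 by limma, n = 3 each). COMMD1 averaged 4.79 ± 0.17 in the superovulated group and 4.30 ± 0.25 in the synchronized group (adjusted p = 0.567 by limma, n = 3 each). MEG3 differed by 0.57 on the brightest of its 5 probe sets. GNAS, the stimulatory G protein gene and the remaining gene above log2 4, read 3.75, 4.70 and 3.68 in superovulated blastocysts, against 3.62, 3.71 and 3.61 in synchronized blastocysts on its brightest probe set. The other 27 genes did not exceed 3.98.

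Among 25 measured genes of the insulin-like growth factor pathway, out of 39 listed, 0 passed in either direction in limma, and 1 was higher and 1 lower at an unadjusted p below 0.05, against 6.65% of all probe sets. The median difference was 0.00 to 2 decimals. Here too the share over all probe sets is no measure for a list that takes the brightest probe set per gene. On these probe sets 5 genes exceeded log2 4 on at least 1 array: IGF2BP1, AKT1, SHC1, IGF2BP3 and IGFBP7. IGF2BP1, which binds and stabilizes IGF2 and other mRNAs, had the smallest p. It read 4.46, 4.84 and 4.30 in superovulated blastocysts, against 3.40, 3.07 and 3.70 in synchronized blastocysts. The groups did not overlap, and the difference of 1.14 did not pass over all probe sets (adjusted p = 0.170 by limma). It passed where only the 2881 probe sets above log2 4 on at least 1 array were tested (adjusted p = 0.0380 by limma). IGF2BP1 entered that set through its superovulated arrays alone, so the filter drew on the same difference and that call is no support. The kinase gene PIK3CA differed by -0.08, AKT1 by 0.16 and the adaptor gene GRB2 by 0.11. SHC1 (5.02 to 5.79) differed by -0.27 and IGF2BP3 (3.71 to 5.30) by 0.32 on their brightest probe sets, and neither passed. Both were highest on superovulated array 3 and synchronized array 2 within their groups. The receptor IGF1R, through which IGF2 signals, stayed between 2.30 and 2.34 on both of its probe sets, and INSR between 2.04 and 3.18 on its 5. SHC1, IGF2BP3, IGF1R, INSR, IGFBP7, GNAS and TRIM28 were chosen after their values were seen. IGFBP7, a secreted binding protein, read 2.70, 2.69 and 3.23 in superovulated blastocysts, against 2.68, 4.70 and 2.75 in synchronized blastocysts, the same arrays that stood out for MEST.

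The imprint protection list, which also holds genes that set DNA methylation, had 1 call among 14 measured of 32 listed, against 0.716% of all probe sets called. At an unadjusted p below 0.05, 3 were higher and 0 lower, against 6.65% of all probe sets in either direction and 2.09% lower. As in the other lists, the shares over all probe sets are no measure for the choice of the brightest probe set per gene. DNMT3A, which encodes an enzyme that sets new DNA methylation, rose on its brightest probe set, to 5.41 ± 0.08 in the superovulated group against 3.74 ± 0.34 in the synchronized group (n = 3 each, adjusted p = 0.0426 by limma), and the call was lost under the second quantile normalization, the intensity trend, the centring on bright probe sets and the replicate block, without both superovulated array 3 and synchronized array 2, and in all leave-one-out fits but that without synchronized array 1. The other 2 DNMT3A probe sets stayed between 2.06 and 2.71. DNMT1, which copies methylation at replication, read 3.07, 3.03 and 3.02 in superovulated blastocysts, against 3.08, 4.01 and 4.14 in synchronized blastocysts. The difference of -0.70 did not pass (adjusted p = 0.636 by limma), but it did without synchronized array 1, at -1.03 (adjusted p = 0.0325 by limma). CBX3, a heterochromatin protein, differed by 1.05 (adjusted p = 0.0769 by limma) and the insulator protein gene CTCF by 0.12, near background. UHRF1, the cofactor that brings DNMT1 to replicating DNA, was chosen after its values were seen. It read 2.71, 2.55 and 4.70 for superovulated arrays 1 to 3, against 2.79, 5.32 and 2.82 for synchronized arrays 1 to 3, high on the arrays where MEST was high, while its second probe set stayed between 3.28 and 3.67. TRIM28, the corepressor bound at imprinted control regions, stayed between 2.23 and 2.26. The median difference over the 14 genes was 0.00 to 2 decimals.

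**Figure D4:**
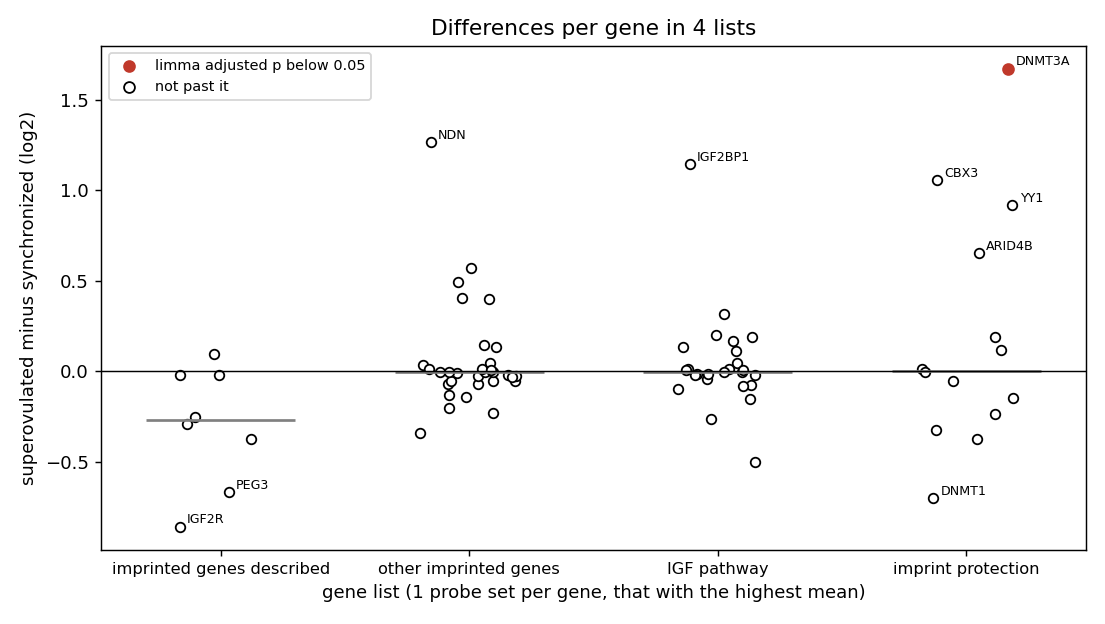
Superovulated minus synchronized difference in log2 value (vertical axis) for each measured gene of 4 lists, using the probe set with the highest mean, with grey lines at list medians and a filled red point where limma's adjusted p was below 0.05. Only DNMT3A is filled, and IGF2R at -0.86 is the lowest point of all 4 lists.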

How the data were processed

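The members and gene lists were chosen with earlier results of these data known. RNA of blastocysts was amplified and hybridized with 1 sample per array, 3 arrays per group. The authors deposited a log2 expression value for each probe set on each array, made with GCRMA per the submitters' processing notes; its version and whether the arrays were normalized together are not given in the sources used here. Control probe sets (112) were left out. Of the other 24016, 13292 had 1 symbol in the platform annotation, 86 had several and 10638 had none; no gene was named from a probe set with several.

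Values were used as deposited. A two-sided limma test (version 3.58.1, R 4.3.3; lmFit, then eBayes, with no covariate beside group) was run on all 24016 probe sets, with Benjamini-Hochberg adjustment over all of them and a threshold of 0.05. Lists used the probe set with the highest mean for each gene. Shares over all probe sets, set beside the gene and marker lists, are not matched to that choice. All probe sets of the 10 genes are given; of each further gene list, genes that passed and up to 4 with the smallest p are named. Of the marker lists, genes that passed are named, and the other markers named were chosen after their values were seen. The procedure was tested on simulated data. The number of arrays limits the precision. The sample labels number the replicates but do not say whether same-numbered arrays were paired, and the main test did not pair them.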

Additional observations from a re-analysis of the deposited data

How the results depend on the processing

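Over the 21 imprinted probe sets the count of calls stayed at 0 except with centring on bright probe sets, where it was 2 (IGF2R and PEG3); with testing limited to means above log2 4 no member was left to test. Thresholds of log2 3 and 5 in place of 4 gave 8 and 0 member probe sets above the level. Calls over all probe sets numbered 172 (167 higher, 5 lower), 28 after a second quantile normalization, 647 (281 higher, 366 lower) with centring on bright probe sets, 50 with an intensity trend, 515 with array weights (456 higher, 59 lower), 441 and 498 among probe sets above log2 4 by mean or on any array, 26 to 137 without 1 array, and 1 once superovulated array 3 and synchronized array 2 were both left out. The split without synchronized array 2 was 96 higher and 41 lower. Further imprinted genes had 1 call with array weights (GATM). The growth factor list had 1 call among probe sets above log2 4 on any array (IGF2BP1, which entered that set through its superovulated arrays alone). Imprint protection genes had 0 calls after the second quantile normalization, with the intensity trend and without both arrays, 2 with array weights, under both filters and with probe sets averaged per gene (DNMT3A and CBX3 each time), and 0 to 2 without 1 array. With centring on bright probe sets the 1 call was DNMT1, lower, in place of DNMT3A.

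With the replicate number as a block, 0 probe sets passed over the whole array and 0 imprint protection genes passed. Deviations of same-numbered arrays correlated at 0.56, -0.51 and -0.46, and superovulated array 3 correlated best with synchronized array 2, at 0.71.

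The sign of a member's difference turned in 28 of 276 refits, at adjusted p between 0.114 and 0.988 by limma; the cause was not tested. The brightest MEST probe set gave 0.082 with array weights, 0.15 without both arrays and -0.80 to 0.55 without 1 array. With centring on bright probe sets, which lowers the difference of every probe set by the same amount, CDKN1C gave -0.60 and -0.53, MEST -0.58 and PEG3 -0.61. With median centring IGF2 gave 0.017 on 2 probe sets, IGF2R 0.02, MEST 0.0033 and PEG3 0.013. With the second quantile normalization IGF2 gave 0.0056, 0.0033 and 0.00056, IGF2R 0.011 and MEST 0.00056. With array weights CDKN1C gave -0.0020 and PEG3 -0.0097. Without both arrays CDKN1C and PEG3 gave -0.005. Without 1 array the range was -0.09 to 0.03 for the brightest IGF2 probe set and -0.013 to 0.0017 for the second IGF2R probe set. It was -0.028 to 0.082 for a dim MEST probe set. For the 3 CDKN1C probe sets, brightest first, it was -0.012 to 0.17, -0.23 to 0.03 and -0.0033 to 0.042.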
